A study of Homo sapiens with 6 samples.

Results

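The nuclear genes of oxidative phosphorylation were taken from the count table as protein-coding genes whose symbols have the form used for subunits of complexes I to V. To these were added *CYC1*, cytochrome c1 of complex III, and *CYCS*, the cytochrome c that links complex III to complex IV. This gave 90 genes of the 58735 in the table, or of the 19951 that are protein-coding. By complex there were 36 genes for complex I, 4 for complex II, 10 for complex III, 1 for cytochrome c, 18 for complex IV and 20 for complex V, besides the read-through gene *ATP5MF-PTCD1*. The rule used only symbols and gene type and no measured value, but it was set with earlier results of these data known. Their expression was compared in H2452 cells, an established line of pleural mesothelioma (a cancer of the lining of the lung), between 3 libraries labelled WT that carry a scrambled guide (sgCtrl) and 3 libraries labelled *NF2*-KO that carry a guide against the tumour suppressor gene *NF2* (sgNF2-1). Both groups were infected with a lentivirus that encodes Cas9, the guide and mCherry, in the presence of polybrene, were sorted for mCherry, and grew in RPMI-1640 with fetal bovine serum and penicillin/streptomycin. The labels name no drug treatment. The study uses them to ask how loss of *NF2* alters the metabolism of mesothelioma cells. The groups rest on 1 cell line and 1 guide against *NF2*, and the labels do not say whether the replicates were separate cultures, so the p-values measure only the spread between these libraries.

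Oxidative phosphorylation is carried out in the inner mitochondrial membrane. Complex I takes electrons from NADH and complex II from succinate, and both pass them to ubiquinone; complex III moves them on to cytochrome c, and complex IV to oxygen. Complexes I, III and IV pump protons as they do so, and complex V, the ATP synthase, lets the protons return to make ATP. All of complex II and cytochrome c are encoded in the nucleus, whereas the other complexes also hold core subunits encoded by mitochondrial DNA. Ubiquinone is also the acceptor of dihydroorotate dehydrogenase (*DHODH*), through which the respiratory chain serves pyrimidine synthesis.

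The libraries held 14782423 to 17416463 counts each. The targeted gene, *NF2* (ENSG00000186575), had 73.7, 72.9 and 67.5 CPM (read counts scaled to the size of the library) in sgCtrl replicates 1 to 3 and 39.3, 52.0 and 41.4 CPM in sgNF2-1 replicates 1 to 3. Its transcript was lower in every sgNF2-1 library, with a log2 fold change of -0.69 (standard error, SE, 0.10, adjusted p = 7.9e-06, edgeR's quasi-likelihood test with p-values adjusted by Benjamini-Hochberg over 14179 tested genes). Here and in what follows, a fold change is that of sgNF2-1 against sgCtrl, CPM are scaled by edgeR's TMM method, values in a row are given in the order of replicates 1 to 3, and a gene is called higher or lower at an adjusted p under 0.05 in this test. Of 10 epithelial and mesothelial markers, 9 could be tested. Of these, *MSLN*, *KRT18* and *THBD* were higher in sgNF2-1 (log2 fold changes 0.66, 0.28 and 0.60, from group means in sgCtrl of 36.4, 797 and 19.2 CPM) and *WT1*, *PDPN* and *KRT19* were lower (-1.04, -1.28 and -0.94, from 10.0, 67.9 and 566 CPM). *CALB2*, calretinin, was at 4.33 CPM in sgCtrl and was not called (-0.51, adjusted p = 0.088). Of the markers of other cell types, none of 5 leukocyte, 5 lung epithelial or 3 erythroid genes had enough counts to be tested, and of 4 endothelial genes 2 were tested. One of these, *PECAM1*, was lower in sgNF2-1 (log2 fold change -2.28, from a group mean of 6.31 CPM). The part of these markers in the results that follow was not tested.

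The 3rd library of each group stood apart from the other two for these genes. Among the 82 members that could be tested, sgCtrl replicate 3 was the highest of its group for 62 (75.6%, against 37.1% of all tested genes), and sgNF2-1 replicate 3 was the highest of its group for 74 (90.2%, against 38.0%). The median member lay above the mean of its group by 0.12 on the log2 scale in sgCtrl replicate 3 and by 0.17 in sgNF2-1 replicate 3, while the median deviation of all tested genes ran from -0.00151 to 0.000525 over the 6 libraries. The same 2 libraries were apart from the others along the second principal component of all tested genes, which held 12.9% of the variance, while the first, with 57.8%, separated the groups. The labels give no batch, and what sets these libraries apart was not tested. Without both libraries, 7 members were higher (5 of them also higher with all libraries) and 18 were lower (9 of them also lower with all libraries), against 17.6% and 16.5% of all tested genes.

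**Figure D1:**
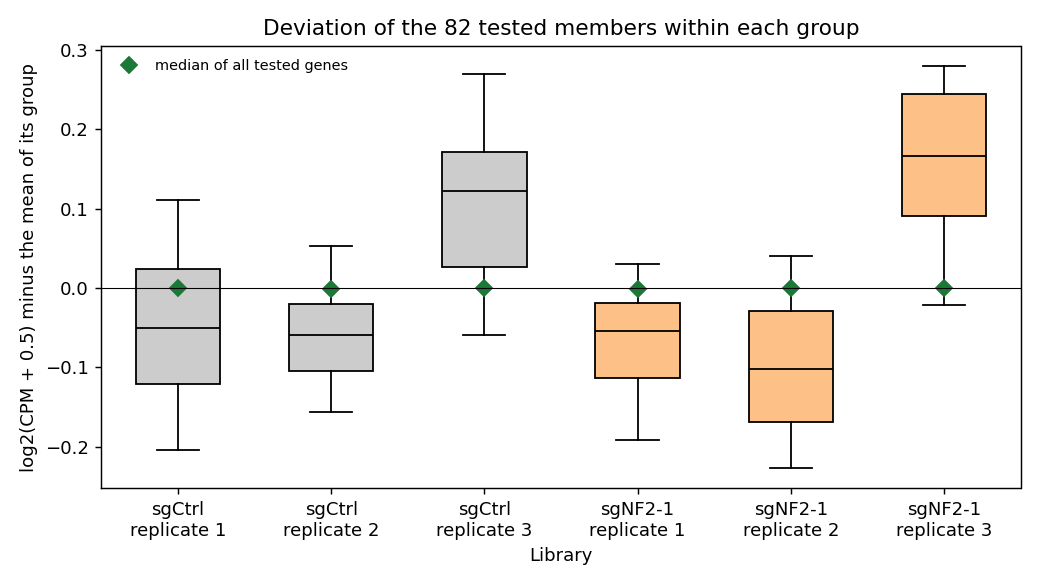
Each box shows, for 1 library, the deviation of the 82 tested members from the mean of their group, as log2(CPM + 0.5), with the median as a line, the quartiles as the box and percentiles 5 and 95 as whiskers, and diamonds mark the median of all tested genes. The members' medians are 0.12 in sgCtrl replicate 3 and 0.17 in sgNF2-1 replicate 3, and below 0 in the other 4 libraries.

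Most fold changes of the nuclear subunit genes between sgCtrl and sgNF2-1 were small, and with all libraries a smaller share of them was called than of all tested genes. Of the 82 tested members, 7 were higher in sgNF2-1 and 9 were lower. Among all tested genes, 2515 were higher (17.7%) and 2351 were lower (16.6%), so that 34.3% were called against 19.5% of the members, and 41.4% of the genes with a mean of 10 to 1000 CPM. Without both libraries numbered 3, 30.5% of the members and 34.2% of all tested genes were called. With no filter on low counts, where 28366 genes were tested, the order turned, to 18.8% of the members against 16.5% of all genes. In bulk RNA, a change in the share of cells that express a gene and a change in the RNA per cell cannot be told apart. The fold changes of the members ran from -0.52 to 0.49 with a median of -0.03 (all tested genes, -0.003), and 75.6% of them lay within 0.25 of 0, against 47.8% of all tested genes. Their median SE was 0.10, against 0.12 for all tested genes. At the thresholds that the study states, a p under 0.05 (taken here as unadjusted) and a log2 fold change beyond 0.5, no member was higher and 2 were lower, *COX7B* and *NDUFB3*, where 9.22% of all tested genes were higher and 10.8% lower. At an unadjusted p under 0.05 alone, 28 of the 82 tested members passed, and 6153 of the 14179 tested genes. All 3 sgNF2-1 libraries lay above all 3 sgCtrl libraries for 10 members (23.2% of all tested genes) and below them for 14 (22.2%). The groups overlapped for the other 58 members, and for 7750 of the 14179 tested genes. For 1 gene, a full separation of the groups gives a two-sided exact permutation p of 0.10, the smallest that 3 libraries against 3 allow.

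**Figure D2:**
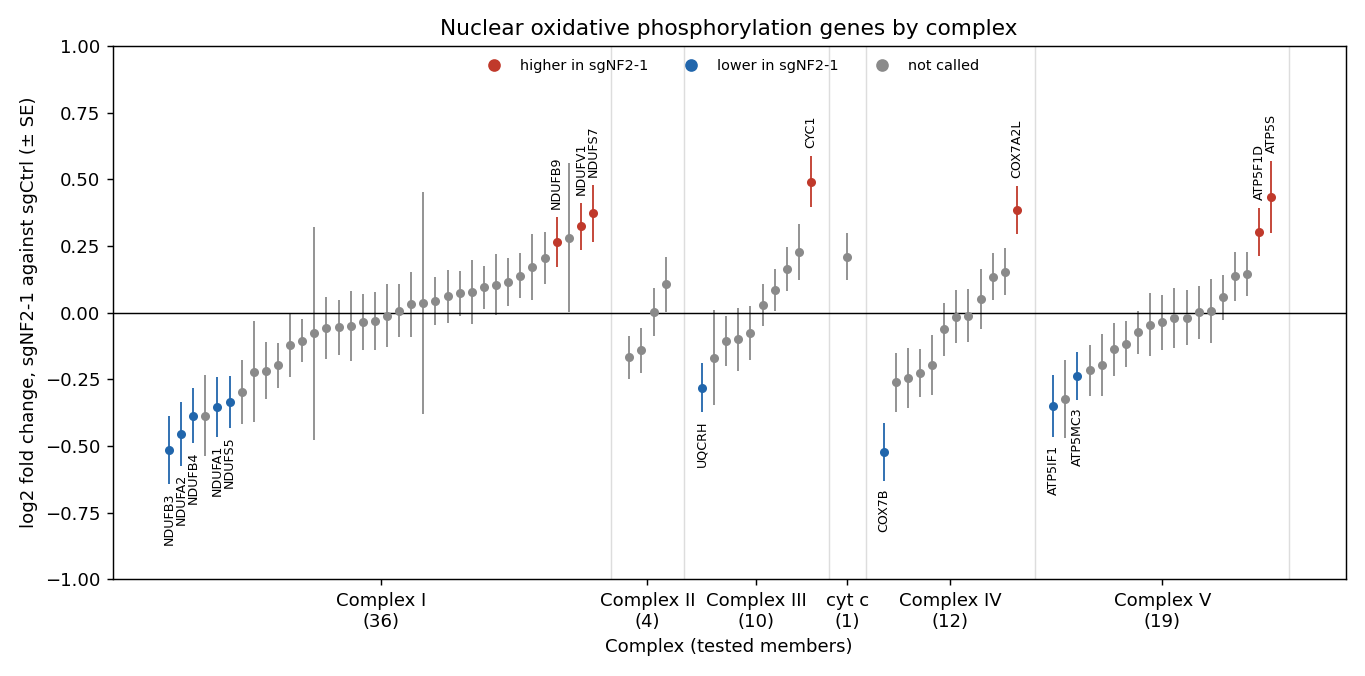
Points are the log2 fold changes (sgNF2-1 against sgCtrl) of the 82 tested members with SE bars, ordered within each complex; red and blue mark adjusted p under 0.05. Calls in both directions appear in complexes I, III, IV and V, the points run from -0.52 to 0.49, and *NDUFV2*, *NDUFA7* and *NDUFA13*, 3 genes with few counts, have the widest bars.

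In sgCtrl the FPKM of the tested members (reads per length of the gene and size of the library, as the authors deposited them) had a median of 25.5, against 3.89 for all tested genes, and ran from 0.383 for *NDUFV2* to 340.4 for *ATP5F1B*, the catalytic beta subunit of ATP synthase. By complex, the median FPKM in sgCtrl was 16.1 for complex I, 22.5 for complex II, 46.6 for complex III, 63.2 for complex IV and 29.9 for complex V, and *CYCS* had 23.0. The low value of *NDUFV2* rests on 101 counts in all 6 libraries, while its processed pseudogene *NDUFV2P1* had 221, and 28.4% of its exonic bases are shared with another annotated gene. *NDUFA7* (85 counts) and *NDUFA13* (254 counts) share 33.5% and 21.0% of their exonic bases with other annotated genes. Low counts of genes of this kind cannot be read as low transcript levels, since reads that fall on several genes may not have been counted for any. Over all members, 199 pseudogene rows named after 46 of them held 3733 counts, 0.452% of the sum, and only for *NDUFV2* (68.6%), *SDHA* (11.0%) and *COX6A1* (6.27%) was their share above 5%.

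Complex I gave 3 higher (8.33%, against 17.7% of all tested genes) and 5 lower genes (13.9%, against 16.6%) of 36. Its median log2 fold change was -0.02. Its 7 nuclear core subunits carry the flavin and the iron-sulphur clusters of the arm that reaches into the matrix. They held 2 of the higher genes (28.6% of the 7) and none of the lower. *NDUFV1* (ENSG00000167792, chr11:67605653-67612554), which binds NADH and the flavin, had 171, 152 and 152 CPM in sgCtrl and 193, 181 and 220.5 CPM in sgNF2-1. All its sgNF2-1 libraries were above the sgCtrl libraries, and its log2 fold change of 0.32 (SE 0.09, adjusted p = 0.0053) stayed between 0.24 and 0.39 over the fits that leave out 1 library. *NDUFS7* (ENSG00000115286, chr19:1383527-1395589), which holds the last iron-sulphur cluster before ubiquinone, had 35.9, 34.5 and 38.4 CPM in sgCtrl and 43.9, 41.6 and 55.5 CPM in sgNF2-1. It rose by 0.37 on the log2 scale (SE 0.11, adjusted p = 0.0096), and sgNF2-1 replicate 3 was the highest library (without it the change was 0.24 with an adjusted p of 0.078). Of its exonic bases 49.1% lie opposite other annotated genes, of which the largest, *AC005329.1*, had 0.541 CPM in sgCtrl. The other core subunits did not pass the threshold. Among them, *NDUFS8* had a log2 fold change of 0.21 (adjusted p = 0.1), *NDUFS3* of 0.01, and *NDUFS1*, the largest iron-sulphur subunit, of -0.11 (SE 0.08). For *NDUFV2* the 95% interval ran from -0.86 to 0.70, so no change of ordinary size could be detected at its depth.

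The 29 supernumerary subunits are small proteins that surround the core of complex I. They held 1 higher gene (3.45%, against 17.7% of all tested genes) and 5 lower genes (17.2%, near the 16.6% of all tested genes). Their median log2 fold change was -0.04. The lower ones were *NDUFB3*, *NDUFA2*, *NDUFB4*, *NDUFA1* and *NDUFS5*. *NDUFB3* (ENSG00000119013, chr2:201071433-201085750), a subunit of the membrane arm, had 27.5, 24.6 and 27.8 CPM in sgCtrl and 16.9, 16.2 and 22.9 CPM in sgNF2-1. It fell by 0.52 on the log2 scale (SE 0.13, adjusted p = 0.0028), the largest decrease within complex I, and kept an adjusted p under 0.05 with any 1 library left out. *NDUFA2* (ENSG00000131495, chr5:140638740-140647785), a subunit of the matrix arm with a thioredoxin-like fold, had 43.9, 43.6 and 55.3 CPM in sgCtrl and 32.5, 30.1 and 41.6 CPM in sgNF2-1. Its log2 fold change of -0.46 (SE 0.12, adjusted p = 0.0042) also passed with any 1 library left out. In both genes the sgNF2-1 libraries were all below the sgCtrl libraries, and replicate 3 was the highest of each group. *NDUFB4* had 127, 140.1 and 177 CPM in sgCtrl and 109, 104 and 126 CPM in sgNF2-1, a log2 fold change of -0.39 (adjusted p = 0.0047), which became -0.24 with an adjusted p of 0.053 without sgCtrl replicate 3. *NDUFA1*, an X-linked subunit needed for assembly of the complex, had 45.2, 45.1 and 52.0 CPM in sgCtrl and 34.8, 32.3 and 44.5 CPM in sgNF2-1. *NDUFS5* had 143, 145 and 167 CPM in sgCtrl and 113, 106 and 143 CPM in sgNF2-1. Their log2 fold changes were -0.35 (adjusted p = 0.017) and -0.34 (adjusted p = 0.01). Neither passed without sgCtrl replicate 3 (adjusted p = 0.076 and 0.058), without sgNF2-1 replicate 1 (0.093 and 0.074) or without sgNF2-1 replicate 2 (0.12 and 0.088).

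The single higher supernumerary gene of complex I was *NDUFB9*, with 50.6, 50.1 and 51.3 CPM in sgCtrl and 56.0, 59.0 and 67.7 CPM in sgNF2-1. The sgCtrl libraries lay close together and the sgNF2-1 libraries all lay above them. Its log2 fold change was 0.26 (SE 0.09, adjusted p = 0.029), and it did not pass without sgCtrl replicate 1, sgCtrl replicate 2, sgNF2-1 replicate 2 or sgNF2-1 replicate 3 (adjusted p = 0.066, 0.088, 0.051 and 0.13). Of the exonic bases of *NDUFB9* 21.0% lie opposite other annotated genes, of which *MTSS1* has the largest overlap (677 bases). *MTSS1* changed the other way (log2 fold change -1.49). Some of the lower genes also overlap a gene on the opposite strand, and the part of these neighbours in the calls was not tested. *FAM126B*, opposite *NDUFB3*, had a log2 fold change of -0.30 (adjusted p = 0.18), in the same direction as *NDUFB3*, at 9.33 CPM in sgCtrl, *TMCO6*, opposite *NDUFA2*, one of 0.40 at 8.54 CPM, and *RNF113A*, opposite *NDUFA1*, one of -0.01 at 15.8 CPM. Among the supernumerary genes that were not called, *NDUFB1* (-0.39, adjusted p = 0.051), *NDUFC2* (-0.30, 0.058), *NDUFB5* (-0.20, 0.073) and *NDUFA5* (-0.22, 0.12) had sgNF2-1 libraries that were all below the sgCtrl libraries, and *NDUFB10* (0.14, 0.22) and *NDUFV3* (0.11, 0.35) had them all above. *NDUFA13*, a low-count gene, had the largest positive value outside the called genes (0.28, SE 0.28). *NDUFAB1*, the mitochondrial acyl carrier protein that is also a subunit of complex I but whose symbol lies outside the rule, had 63.9, 61.1 and 81.2 CPM in sgCtrl and 62.2, 62.4 and 77.9 CPM in sgNF2-1 and a log2 fold change of -0.03 (SE 0.11).

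**Figure D3:**
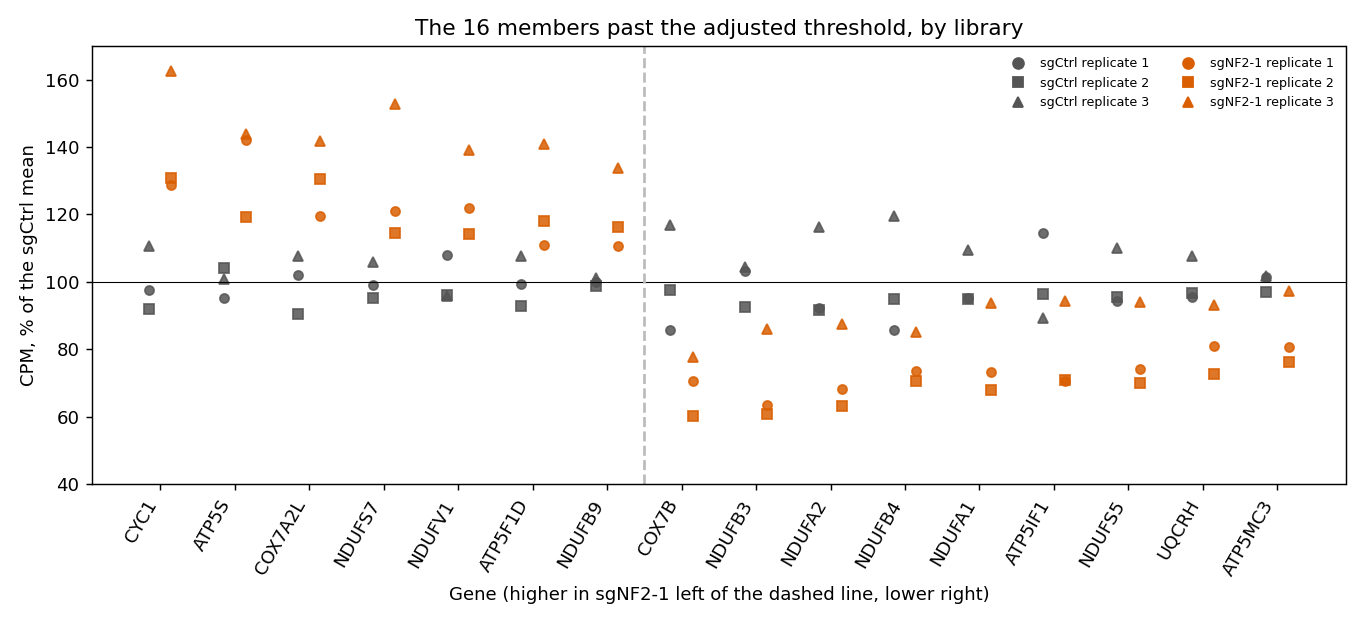
For each of the 16 called members, the 6 libraries are plotted as CPM in percent of the mean of sgCtrl (grey, sgCtrl; orange, sgNF2-1; circles, squares and triangles, replicates 1 to 3). The sgNF2-1 points sit above the sgCtrl points for the 7 genes on the left and below them on the right, except for *ATP5IF1* and *ATP5MC3*, where sgNF2-1 replicate 3 overlaps sgCtrl, and the triangles are the highest point of their group for most genes.

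None of the 4 subunits of complex II, which is also succinate dehydrogenase of the citric acid cycle, was called. Without both libraries numbered 3, 1 of them was higher and 1 lower, where 17.6% and 16.5% of all tested genes were. *SDHA*, the flavoprotein that oxidizes succinate, had 225, 198 and 197 CPM in sgCtrl and 181, 186 and 186 CPM in sgNF2-1. Every sgNF2-1 library was below every sgCtrl library, but the log2 fold change of -0.17 (SE 0.08) had an adjusted p of 0.11, and part of its reads could belong to its pseudogenes. *SDHB*, the iron-sulphur subunit, had 104, 98.3 and 125 CPM in sgCtrl and 105, 114 and 107 CPM in sgNF2-1 and a log2 fold change of 0.00 (95% interval -0.18 to 0.18). The membrane anchors *SDHC* and *SDHD*, which bind ubiquinone with *SDHB*, had log2 fold changes of -0.14 (adjusted p = 0.2) and 0.11 (adjusted p = 0.46).

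Complex III passes electrons from ubiquinol to cytochrome c. Of its 10 genes, 1 was higher and 1 was lower (10.0% each, against 17.7% and 16.6% of all tested genes). The higher one was *CYC1* (ENSG00000179091), cytochrome c1, the haem protein that hands electrons to cytochrome c. It had 104, 98.1 and 118 CPM in sgCtrl and 138, 139.7 and 174 CPM in sgNF2-1, so that the lowest sgNF2-1 library exceeded the highest sgCtrl library. The log2 fold change of 0.49 (SE 0.10, adjusted p = 0.00027) was the largest increase among the 82 members and lay between 0.38 and 0.57 when single libraries were left out. The lower one was *UQCRH* (ENSG00000173660, chr1:46303631-46316776), the acidic hinge protein that sits next to cytochrome c1, with 129, 131 and 146 CPM in sgCtrl and 110.0, 98.4 and 126 CPM in sgNF2-1. It fell by 0.28 on the log2 scale (SE 0.09, adjusted p = 0.019), and its adjusted p was 0.080 without sgCtrl replicate 3, 0.075 without sgNF2-1 replicate 1 and 0.16 without sgNF2-1 replicate 2. These genes for neighbouring proteins moved in opposite directions. The Rieske iron-sulphur protein *UQCRFS1* (0.08, SE 0.08) and the core proteins *UQCRC1* (0.16, adjusted p = 0.14) and *UQCRC2* (0.03, SE 0.08) were not called, nor were *UQCR11* (0.23, adjusted p = 0.1), *UQCRQ* (-0.11), *UQCR10* (-0.10) or *UQCRB* (-0.08). *UQCRHL*, a retrocopy of *UQCRH* with 5.70 to 6.41 CPM as group means, had -0.17 (SE 0.18), and reads of the pair may be split between them. Cytochrome c itself, *CYCS* (ENSG00000172115, chr7:25120091-25125361), had 105, 99.3 and 119.7 CPM in sgCtrl and 115, 123 and 136 CPM in sgNF2-1. Its sgCtrl and sgNF2-1 libraries overlapped, and its log2 fold change of 0.21 (SE 0.09) had an adjusted p of 0.072.

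Complex IV, cytochrome c oxidase, has 18 nuclear genes here, of which 12 were tested. Of these, 1 was higher and 1 was lower (8.33% each, against 17.7% and 16.6% of all tested genes). The lower one, *COX7B* (ENSG00000131174, chrX:77899438-77907373), a small membrane subunit, had 70.9, 80.6 and 96.5 CPM in sgCtrl and 58.5, 49.9 and 64.3 CPM in sgNF2-1. The highest sgNF2-1 library was below the lowest sgCtrl library. Its log2 fold change of -0.52 (SE 0.11, adjusted p = 0.00048) was the largest decrease among all members and lay between -0.62 and -0.40 when single libraries were left out. The higher one, *COX7A2L* (ENSG00000115944, chr2:42333546-42425088), encodes a relative of *COX7A2* that joins complexes III and IV in supercomplexes, and had 98.8, 87.7 and 104 CPM in sgCtrl and 116, 127 and 137 CPM in sgNF2-1. It rose by 0.38 (SE 0.09, adjusted p = 0.0015) on the log2 scale and passed with any 1 library left out. *COX7A2*, the form of that subunit in the complex itself, had a log2 fold change of -0.26 (adjusted p = 0.068), and *NDUFA4*, once assigned to complex I and now counted with complex IV, one of -0.25 (adjusted p = 0.093). In both of these genes and in *COX6B1* (-0.23, adjusted p = 0.057), which lies on the side of cytochrome c, the groups overlapped. *COX4I1* and *COX5A*, which join early in assembly, and *COX5B* did not pass either. *COX4I1* had a log2 fold change of 0.15 (adjusted p = 0.19) and was the most abundant by counts, with 401, 398 and 459.7 CPM in sgCtrl and 459.6, 427 and 515 CPM in sgNF2-1. The log2 fold changes of *COX5A* and *COX5B* were 0.13 (adjusted p = 0.25) and -0.02 (SE 0.10).

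Several complex IV subunits exist in tissue forms, and the cells expressed the general ones. *COX4I2*, *COX6A2*, *COX7B2* and *COX8C* had 0 counts in all 6 libraries, *COX7A1* had 7 counts and *COX6B2*, the testis form, had 32 counts in all. Their general counterparts were at group means in sgCtrl of 419.8 CPM (*COX4I1*), 55.4 CPM (*COX6A1*), 82.7 CPM (*COX7B*), 105 CPM (*COX8A*), 102 CPM (*COX7A2*) and 132 CPM (*COX6B1*). None of the 6 tissue forms could be tested. *NDUFA4L2*, a relative of *NDUFA4* known from hypoxic cells, is outside the rule by its symbol and had 4.12, 2.99 and 4.15 CPM in sgCtrl and 4.55, 5.96 and 5.27 CPM in sgNF2-1. Its sgNF2-1 libraries were all above the sgCtrl libraries at a low level, with a log2 fold change of 0.48 (SE 0.22, adjusted p = 0.086).

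For complex V, 2 of 19 tested genes were higher and 2 were lower, where 17.7% and 16.6% of all tested genes were. Within the F1 head, which makes ATP, the central stalk subunit delta, *ATP5F1D* (ENSG00000099624, chr19:1241746-1244826), had 158, 148 and 171 CPM in sgCtrl and 176, 188 and 224 CPM in sgNF2-1. It rose by 0.30 (SE 0.09, adjusted p = 0.012), with all sgNF2-1 libraries above sgCtrl, but did not pass without sgCtrl replicate 2 (adjusted p = 0.076) or sgNF2-1 replicate 3 (0.078). The alpha and beta subunits of the head, *ATP5F1A* and *ATP5F1B*, the members with the most counts, had 653, 604 and 671 CPM in sgCtrl and 602, 608 and 622 CPM in sgNF2-1 and 805, 798 and 899 CPM in sgCtrl and 843, 841 and 919.8 CPM in sgNF2-1, and their log2 fold changes were -0.07 (95% interval -0.23 to 0.08) and 0.06 (-0.11 to 0.22). The gamma and epsilon subunits *ATP5F1C* and *ATP5F1E* had log2 fold changes of -0.14 and -0.22 (adjusted p = 0.31 and 0.083). The other higher gene, *ATP5S*, a factor B protein that is not a structural subunit, had 10.7, 11.6 and 11.3 CPM in sgCtrl and 15.9, 13.3 and 16.1 CPM in sgNF2-1, a log2 fold change of 0.43 (SE 0.13, adjusted p = 0.014). Its adjusted p was 0.062 without sgNF2-1 replicate 1. Of its exonic bases 20.1% lie opposite other annotated genes. The largest overlap, of 1602 bases, was with *CDKL1*, which had a log2 fold change of 0.44 at 2.60 CPM in sgCtrl.

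The 3 genes *ATP5MC1*, *ATP5MC2* and *ATP5MC3* encode the same mature c subunit of the rotor ring from separate loci, and they did not move together. *ATP5MC3* had 217, 208 and 218 CPM in sgCtrl and 173, 163 and 209 CPM in sgNF2-1. It fell by 0.24 on the log2 scale (SE 0.09, adjusted p = 0.039), yet sgNF2-1 replicate 3 overlapped the sgCtrl range, and the call was kept only when that library was the one left out (adjusted p of 0.061 to 0.25 without each of the others). *ATP5MC2* had 186, 181 and 181 CPM in sgCtrl and 183, 204 and 217 CPM in sgNF2-1 and a log2 fold change of 0.14 (adjusted p = 0.18), and *ATP5MC1* had one of 0.00 (SE 0.10). *ATP5IF1* (ENSG00000130770, chr1:28236109-28246906), the inhibitor that stops the enzyme from running backwards, had 60.4, 50.9 and 47.1 CPM in sgCtrl and 37.2, 37.5 and 49.8 CPM in sgNF2-1. Its log2 fold change was -0.35 (SE 0.11, adjusted p = 0.02), with overlap through sgNF2-1 replicate 3 again, and its adjusted p was 0.14 without sgCtrl replicate 1, 0.13 without sgNF2-1 replicate 1 and 0.10 without sgNF2-1 replicate 2. None of the 4 peripheral stalk genes or the 5 tested small membrane subunits was called. In the stalk the log2 fold changes ran from -0.12 for *ATP5PB* to 0.14 for *ATP5PD*, and *ATP5ME*, of whose exonic bases 61.6% lie opposite *MYL5*, had the lowest value among the membrane subunits (-0.32, adjusted p = 0.092).

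The called members differed in length. The 7 higher genes had a median exonic length of 5057 bases (1975 to 11297) and the 9 lower genes of 1488 bases (548 to 6780), where the median of the 82 tested members was 2545 and that of all tested genes 4722. Among the 23 tested members of up to 1500 bases, 5 were lower and none was higher, and of all 1282 tested genes of that length 10.9% were lower and 11.9% higher. Across the 82 members, length and log2 fold change had a Pearson r of 0.27 and a Spearman rho of 0.26, and across all tested genes of -0.02 and -0.05. These genes share the same 6 libraries and are not replicates, so this is a description. After removal of the trend with length in each library, the same 7 members were higher and 14 were lower, among them all 9 lower genes, and the members' fold changes had shifted by -0.04 to 0.07. A part of length in the direction of the calls beyond that trend was not tested.

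**Figure D4:**
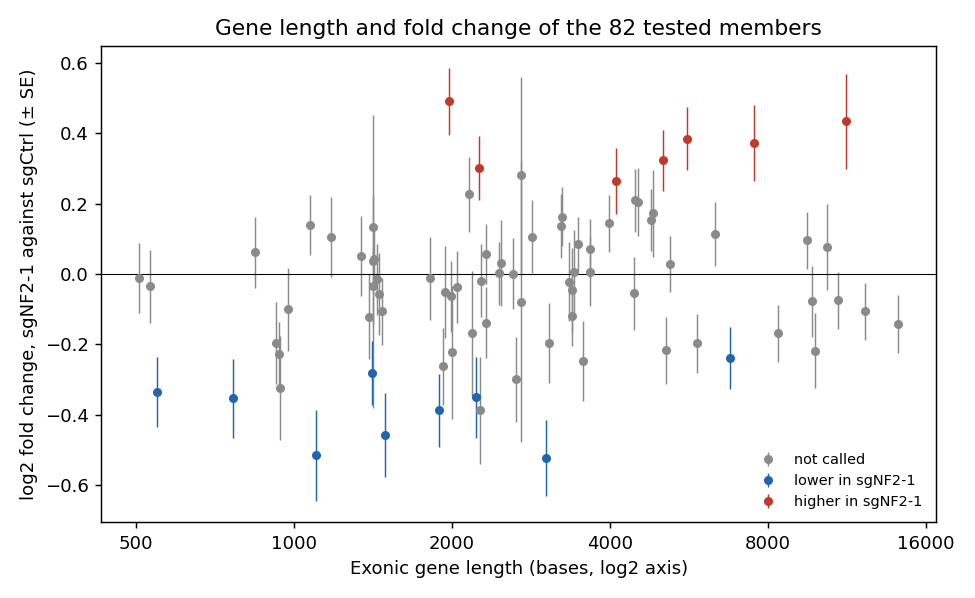
The log2 fold change (sgNF2-1 against sgCtrl, with SE bars) of each of the 82 tested members is plotted against its exonic length on a log2 axis; red and blue points are called higher and lower. The blue points gather on the left, with a median length of 1488 bases, and the red points on the right, with a median of 5057 bases.

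The factors that build the complexes but do not stay in them were described from a list of 60, of which 59 were tested. They had a median log2 fold change of 0.12, and 15 were higher (25.4%, against 17.7% of all tested genes) and 4 were lower (6.78%, against 16.6%). By complex, 5 of 19 factors for complex I, 1 of 4 for complex II, 3 of 6 for complex III, 6 of 26 for complex IV and none of 4 for complex V were higher. *NDUFAF2*, a late factor of complex I, had 23.5, 27.5 and 27.4 CPM in sgCtrl and 39.8, 36.8 and 47.2 CPM in sgNF2-1, with no overlap and a log2 fold change of 0.66 (SE 0.11, adjusted p = 6e-05). *BCS1L*, which moves the Rieske protein across the inner membrane, had 23.0, 23.3 and 22.2 CPM in sgCtrl and 35.5, 36.3 and 48.2 CPM in sgNF2-1. It rose by 0.80 (SE 0.12, adjusted p = 8.3e-06) on the log2 scale, the most of these 59 genes, while the Rieske gene *UQCRFS1* stood at 0.08. *UQCC3*, which stabilizes newly made cytochrome b, rose by 0.78, *SDHAF3*, a factor for the iron-sulphur subunit of complex II, by 0.65, *COX10*, which makes the haem precursor of complex IV, by 0.56, and *COX19* by 0.72 (adjusted p = 0.00081, 0.0051, 0.00064 and 1.3e-05).

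The 4 lower factors were *COX17*, *SCO2*, *COX14* and *NDUFAF1*. *COX17*, the copper chaperone, had 20.6, 18.3 and 21.4 CPM in sgCtrl and 12.2, 10.6 and 14.7 CPM in sgNF2-1. It fell by 0.69 (SE 0.13, adjusted p = 0.0003) on the log2 scale with no overlap. *SCO2* (ENSG00000130489), which *COX17* supplies with copper, had 8.57, 4.69 and 5.27 CPM in sgCtrl and 2.56, 3.37 and 4.78 CPM in sgNF2-1, at a low level, with overlapping groups and a log2 fold change of -0.80 (SE 0.25, adjusted p = 0.014). Of other factors for the copper centres, *COX19* and *COA6* (0.37, adjusted p = 0.017) were higher and *SCO1* (0.19, adjusted p = 0.15) and *COX11* (0.04, adjusted p = 0.79) were not called. *COX14* and the complex I factor *NDUFAF1* had log2 fold changes of -0.42 and -0.33 (adjusted p = 0.012 and 0.017), and the groups overlapped for *COX14* but not for *NDUFAF1*. Over the fits without single libraries, 12 to 16 factors were higher and 1 to 4 lower, with 1 lower without sgNF2-1 replicate 1 and 2 without sgCtrl replicate 3.

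The 13 subunits encoded by mitochondrial DNA had a median log2 fold change of 0.43, and 10 were higher in sgNF2-1 (76.9%, against 17.7% of all tested genes) and none lower (against 16.6%). For 5 of the 13, every sgNF2-1 library lay above every sgCtrl library (23.2% of all tested genes). The groups overlapped for the other 8, among them the called *MT-ND1*, *MT-ND4*, *MT-ND4L*, *MT-CO3* and *MT-ATP6*. *MT-CYB*, the cytochrome b of complex III, had 1109.7, 1409 and 1741 CPM in sgCtrl and 2133, 2963 and 2474 CPM in sgNF2-1. All its sgNF2-1 libraries were above sgCtrl, and it rose by 0.83 (SE 0.13, adjusted p = 1.3e-05). *MT-ND2* of complex I rose by 0.77 (SE 0.12, adjusted p = 2.1e-05), while *MT-CO1* (0.20), *MT-ND5* (0.27) and the low *MT-ATP8* (0.43) did not pass (adjusted p = 0.17, 0.062 and 0.092). Counts on these 13 genes were 2.41, 2.92 and 3.05 times those on the 90 nuclear members in the sgCtrl libraries and 3.34, 4.52 and 3.33 times in the sgNF2-1 libraries, so that every sgNF2-1 library was above every sgCtrl library. The nuclear members took 0.870%, 0.849% and 0.921% of all counts in sgCtrl and 0.844%, 0.812% and 0.922% in sgNF2-1, and in this the groups overlapped. The count of 10 rested on single libraries and on the test, with 6 genes higher without sgCtrl replicate 1, 5 without sgNF2-1 replicate 2, 6 with DESeq2, 3 with limma on FPKM and none with limma on FPKM with no filter on low values. Of all tested genes, 15.1%, 14.9%, 16.6%, 14.3% (on log2(FPKM + 1)) and 4.5% were higher in these fits.

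Of 5 tested genes for other enzymes that reduce ubiquinone, 1 was higher and 2 were lower, where 17.7% and 16.6% of all tested genes were. *DHODH* rose (0.51, SE 0.12, adjusted p = 0.0014), whereas *GPD2*, the mitochondrial glycerol phosphate dehydrogenase, with 33.0, 35.0 and 35.3 CPM in sgCtrl and 27.9, 24.3 and 21.8 CPM in sgNF2-1, and *ETFDH*, which takes electrons from fatty acid oxidation, with 22.4, 18.5 and 22.7 CPM in sgCtrl and 17.1, 14.8 and 15.7 CPM in sgNF2-1, both fell without overlap. Their log2 fold changes were -0.48 and -0.42 (SE 0.11 and 0.12, adjusted p = 0.0015 and 0.011). *ETFB*, a subunit of the flavoprotein that hands electrons to *ETFDH*, fell by 0.35 (adjusted p = 0.018), with overlapping groups. *ETFA*, the other subunit of that flavoprotein (-0.13, adjusted p = 0.23), and the ubiquinone reductases *SQOR* (-0.11, adjusted p = 0.31) and *AIFM2* (0.09, adjusted p = 0.47) were not called. Among 13 genes of ubiquinone synthesis, 2 were higher (15.4%, near the 17.7% of all tested genes) and none lower, *COQ8A* (0.59, adjusted p = 0.00016) and *COQ9* (0.32, adjusted p = 0.007). *SLC25A6*, 1 of the carriers that exchange ATP for ADP, rose by 0.54 (SE 0.08, adjusted p = 2.3e-05), and the phosphate carrier *SLC25A3* by 0.24 (adjusted p = 0.026). In the citric acid cycle and pyruvate dehydrogenase, 3 of 17 genes were higher (17.6%, near that of all tested genes) and 1 was lower (5.88%). Of the 78 mitochondrial ribosomal protein genes, which serve the translation of the mitochondrial subunits, 31 were higher (39.7%, against 17.7% of all tested genes) and 1 was lower (1.28%, against 16.6%), with a median log2 fold change of 0.21.

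**Figure D5:**
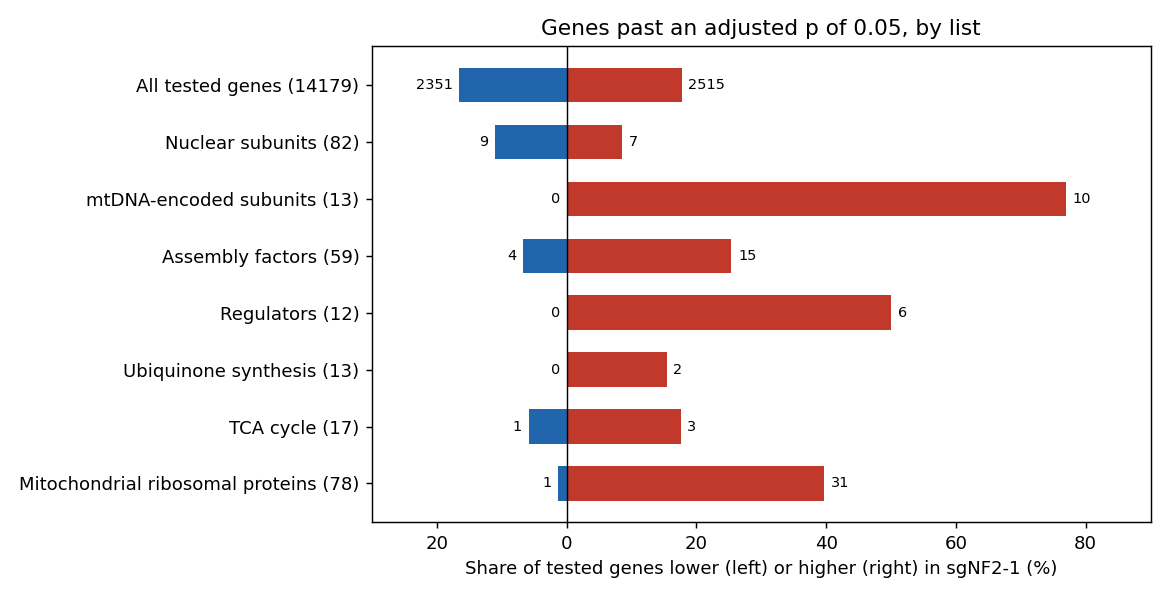
Bars give the share of tested genes in each list (number tested in brackets) that were called higher (red, right) or lower (blue, left) in sgNF2-1, with the number of genes at the end of each bar. The nuclear subunits have 7 higher and 9 lower genes of 82, while the subunits encoded by mitochondrial DNA have 10 of 13 higher and the mitochondrial ribosomal proteins 31 of 78.

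Of 13 genes for transcription factors and coactivators of respiratory genes, and for other proteins of mitochondrial gene expression, 12 were tested. Of these, 6 were higher and none was lower, where 17.7% and 16.6% of all tested genes were. The higher ones included *TFB1M* (0.65, adjusted p = 7e-05), *TFB2M* (0.45, adjusted p = 0.0033) and the mitochondrial RNA polymerase *POLRMT* (0.47, adjusted p = 6.6e-05). *GABPB1*, the partner of the ETS factor *GABPA*, had 13.8, 11.9 and 14.4 CPM in sgCtrl and 18.0, 20.7 and 18.3 CPM in sgNF2-1 and rose by 0.51 (SE 0.13, adjusted p = 0.003), and *GABPA* itself had a log2 fold change of 0.04 (SE 0.10). *NRF1*, nuclear respiratory factor 1, had 17.9, 16.9 and 19.5 CPM in sgCtrl and 23.3, 23.7 and 19.7 CPM in sgNF2-1, without overlap but with an adjusted p of 0.056 for a log2 fold change of 0.30. *ESRRA* (0.29, adjusted p = 0.02) and *PPRC1* (0.29, adjusted p = 0.017) were higher, whereas *TFAM* (0.12), *YY1* (0.07) and *PPARGC1B* (-0.01) were not called and *PPARGC1A* had at most 2 counts in any library.

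Many respiratory genes carry sites for such factors close to their start. Promoter windows of 250 bases before to 50 after the start were taken from RefSeq (GRCh38.p14), which held 70 of the 90 members, 66 of them tested, and were searched on both strands for the core letters of these sites. The letters GCATGCGC, the core of an *NRF1* site, were present in 14 windows (20.0%) against 4.26% of 15843 promoters of protein-coding genes, AAGATGGC, as in *YY1* sites, in 11 (15.7%, against 3.91%), and CCGGAAG, as in *GABPA* sites, in 20 (28.6%, against 14.2%). GGAATG, the core of the TEAD sites through which the *NF2* pathway acts, was present in 6 (8.57%, against 11.7%), and TGATGCAA, as in *ATF4* sites, in none (against 0.669%). These are matches of letters and not measured sites. Of the tested windows, 3 belonged to higher, 7 to lower and 56 to uncalled genes, and the *NRF1* letters were present in 1, 1 and 12 of them, the *YY1* letters in 1, 0 and 10, and the *GABPA* letters in 0, 2 and 18. The windows of *NDUFS7*, which was higher, *NDUFB4*, which was lower, and *SDHB*, which was not called, are printed because each holds the *NRF1* letters while the fold changes of the genes differ (0.37, -0.39 and 0.00). They lie at chr19:1383657-1383956 on the plus strand, chr3:120596086-120596385 on the plus strand and chr1:17053983-17054282 on the minus strand, are written 5′ to 3′ along the gene, and show in capitals the core letters found on either strand.
NDUFS7: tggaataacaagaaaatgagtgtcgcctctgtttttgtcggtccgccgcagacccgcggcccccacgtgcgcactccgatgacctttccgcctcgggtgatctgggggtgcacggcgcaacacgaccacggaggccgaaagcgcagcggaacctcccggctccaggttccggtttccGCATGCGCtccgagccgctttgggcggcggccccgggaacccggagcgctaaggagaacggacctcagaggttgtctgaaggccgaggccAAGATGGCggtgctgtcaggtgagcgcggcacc
NDUFB4: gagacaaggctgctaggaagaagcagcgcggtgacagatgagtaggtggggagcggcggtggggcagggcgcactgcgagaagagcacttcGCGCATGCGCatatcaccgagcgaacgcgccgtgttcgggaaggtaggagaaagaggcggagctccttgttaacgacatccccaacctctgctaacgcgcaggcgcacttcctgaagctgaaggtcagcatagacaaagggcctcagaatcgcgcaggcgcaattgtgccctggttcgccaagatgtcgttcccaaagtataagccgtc
SDHB: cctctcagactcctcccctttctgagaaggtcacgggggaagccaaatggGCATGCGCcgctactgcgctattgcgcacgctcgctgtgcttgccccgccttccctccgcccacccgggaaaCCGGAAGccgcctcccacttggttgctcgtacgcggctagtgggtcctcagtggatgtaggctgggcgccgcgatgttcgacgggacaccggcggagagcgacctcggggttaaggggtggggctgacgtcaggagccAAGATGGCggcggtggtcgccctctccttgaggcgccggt
In *NDUFS7* the capitals are the *NRF1* letters and, just after the start, the *YY1* letters. In *NDUFB4* the run of capitals holds the *NRF1* letters on both strands, and in *SDHB* the capitals are, in order, the *NRF1*, *GABPA* and *YY1* letters.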

How the data were processed

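Total RNA of H2452 cells was sequenced by the authors as paired-end reads of 150 bases on an Illumina NovaSeq platform, in 3 sgCtrl and 3 sgNF2-1 libraries. Read counts, not normalized, and FPKM values were deposited by the authors for each gene. The FPKM values equal the deposited count divided by gene length and by 1 depth per library, within 0.1% for all values tested. The submitters' processing notes name HISAT2, StringTie 1.3.3b, featureCounts 1.5.0-p3 and hg38, with no roles, and the strand setting of the counting is not given in the sources used here, so genes that overlap on opposite strands are uncertain. Gene coordinates are those of the count table, and for all 90 members they equal GENCODE release 29.

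Groups came from the sample titles, and the columns named sgNF2 were matched to the titles sgNF2-1 by number. The 14179 genes that passed filterByExpr (count minimum 10, total minimum 15) were scaled by TMM, and the groups were compared by the quasi-likelihood test of edgeR 4.0.16 in R 4.3.3. P-values were adjusted over all tested genes by the Benjamini-Hochberg method. The SE is the fold change divided by the square root of the test's F. The total counts of 14782423 to 17416463 set the precision of low genes, and 8 of 90 members did not pass the filter. Library pairs within a group differed by a chi-square per degree of freedom of 4.85 to 11.5, so no library was counted as a duplicate. The alternatives were DESeq2 1.42.0, other size factors, other filters, protein-coding genes only, pseudogene counts added, removal of a trend with length, a replicate block, leaving out each library, and limma 3.58.1 on log2(FPKM + 1) or log2(FPKM + 0.1) for genes whose mean FPKM reached 0.5. Leaving out both libraries numbered 3 was added after seeing the data. The procedures were tested on simulated counts.

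The members and all gene lists were chosen with earlier results of these data known. Named genes are the subunits with a set catalytic or regulatory role, the 3 highest and 3 lowest fold changes of complexes I, III, IV and V, the tissue forms of complex IV, genes of the other lists past the adjusted threshold with a log2 fold change beyond 0.5, and set regulators. Genes named beyond these, among them the other called genes, were chosen after their values were seen.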

Additional observations from a re-analysis of the deposited data

How the results depend on the processing

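Against 7 higher and 9 lower members, limma gave 3 and 5 on log2(FPKM + 1), 3 and 5 on log2(FPKM + 0.1), and 0 and 1 on log2(FPKM + 1) with no filter. Library totals in place of TMM gave 16 lower members of 82, against 17.8% of all tested genes, and removal of the length trend 14, against 17.5%. With the libraries numbered 3 left out of both groups, 18 members were lower, against 16.5% of all tested genes. With the replicate block, 9 were higher and 15 lower, against 19.0% and 17.6% of all tested genes. Over all tested genes, deviations of libraries with the same number correlated at -0.03, 0.06 and 0.05, so the numbers were not taken to pair the samples, although both libraries numbered 3 were high for most members. With each library left out, 4 to 12 members were higher (12 without sgCtrl replicate 3, 4 without sgNF2-1 replicate 3) and 4 to 17 were lower (17 without sgNF2-1 replicate 3, 5 without sgCtrl replicate 3, 4 without sgNF2-1 replicate 1 or 2). At the study's thresholds, against 0 higher and 2 lower, the range was 0 to 2 higher and 0 to 4 lower, with 1 higher under no filter and 4 lower without both libraries numbered 3. The causes were not tested. DESeq2 (7 and 9), median-of-ratios size factors (7 and 10), 10 counts in every library (7 and 11), protein-coding genes only (7 and 11), no filter (7 and 9) and added pseudogene counts (7 and 9) stayed within 1.5 times of the 7 and 9. With both directions counted together, the share of members called was below that of all genes in every setting but the one with no filter (18.8% against 16.5%). For lower genes alone, the share of members was above that of all genes in some settings, among them the fit without both libraries numbered 3. The median log2 fold change of the members ran from -0.11 to 0.05 over all alternatives.

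Of the 16 called members, 6 (*NDUFB3*, *NDUFA2*, *NDUFV1*, *CYC1*, *COX7B* and *COX7A2L*) were called in all 15 count-based alternatives and in both filtered FPKM tests, and none in the unfiltered FPKM test. No called member changed direction. Of the 66 uncalled members, 15 were called in at least 1 alternative. Depth limits *NDUFV2*, *NDUFA7* and *NDUFA13*, and the exact permutation test cannot go below 0.10.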
